A study of Caenorhabditis elegans with 4 samples.

Results

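The *cyp-35* subfamily of cytochrome P450 genes was followed in wild-type (N2) *C. elegans* kept on plates with 200 µM remofuscin or on plates with 0 µM (NC). The members were taken by gene name, *cyp-35A1* to *cyp-35A5*, *cyp-35B1* to *cyp-35B3*, *cyp-35C1* and *cyp-35D1*, which are 10 of the 19811 genes that could be named on the array, with 13 of its 43603 probes. Both groups were N2 worms grown at 25 °C on *E. coli* OP50, placed on the treatment plates at 1 day of adulthood and collected after 14 days. The remofuscin-treated group and the NC group each hold 2 arrays, 1 from each of 2 independent experiments. Each array carries RNA of whole worms pooled from many animals. P-values thus rest on the spread between such pools and not between single worms, and the limma fit below takes part of that spread from other probes. The labels call the compound soraprazan.

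Cytochrome P450 enzymes carry out phase I of xenobiotic detoxification, in which a foreign or endogenous lipophilic molecule is oxidized before it is conjugated and exported. In *C. elegans*, the *cyp-35* genes are known as strongly inducible members of this family. They act mainly in the intestine, where reporters of the *cyp-35A* genes respond to drugs and pollutants, among them lansoprazole, which like remofuscin acts on the gastric proton pump of mammals. Several *cyp-35A* genes also affect the storage of intestinal fat. *cyp-35B1* is known as a gene downstream of the insulin-like signaling pathway and DAF-16, and *cyp-35D1* oxidizes the anthelmintic thiabendazole.

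Signals are scanner intensities scaled to the 75th percentile of each array, in arbitrary units. The limma fit compared the groups over 29057 probes, those that the scanner software marked well above background in 2 or more of the 4 hybridizations. The binding of different probes differs, so the signal of 1 gene is not set against that of another here. The lowest signal of a probe well above background was 13.2 and 17.3 for remofuscin-treated worms and 13.5 and 11.7 on the NC arrays. All 4 arrays lay on 1 slide. None of the 13 probes was marked as an outlier or saturated on any array. Between 63.3% and 66.6% of the spots were well above background. The 8 lists of cell type markers hold 35 genes, of which 34 were well above background on at least 1 array. Since RNA came from whole worms, more RNA per cell and more cells of a type cannot be told apart.

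The *cyp-35* genes fell into 3 sets on these arrays. *cyp-35A1* to *cyp-35A5* and *cyp-35C1* were upregulated in remofuscin-treated worms, by 8.70-fold to 90.0-fold in fitted values. *cyp-35B1* was 2.08-fold higher in the fit but did not pass the adjustment. *cyp-35B2*, *cyp-35B3* and *cyp-35D1* were not well above background on any array. At a limma adjusted p under 0.05, 6 of the 10 genes were higher in remofuscin-treated worms, read from the brightest probe of each gene (that with the highest mean log2 signal over the 4 arrays), and 0.372% of all tested probes were called in this direction. This count was 2 under normexp background correction, 0 in the methods' t-test after adjustment, where 8 passed before it, and 8 with the experiment as a replicate block. None of the 10 genes was lower by the adjusted limma rule, against 0.0654% of the tested probes. By the limits of the methods, a change of 2-fold or more and p under 0.05 before adjustment, 8 of the 10 genes were higher, against 1.84% of the tested probes, and 0 were lower, against 1.02%. With the replicate block, 3.15% of the tested probes were higher and 1.94% lower after adjustment, and 2.26% were higher by the limits of the methods. That fit had 1 residual degree of freedom and gave every probe 1 common spread (SD 0.269 on the log2 scale). Of the 8 genes past the limits of the methods, *cyp-35B2* comes from a fit over all probes, where 1.82% were called, and its signals give no fold change because they were not well above background. In total, 7 genes passed the filter on dim probes, and *cyp-35A1* and *cyp-35A5* passed it only through the arrays of remofuscin-treated worms. The median log2 fold change over the 10 genes was 3.50, or 3.00 with *cyp-35A1* and *cyp-35A5* at their bounds, and the median over all tested probes was -0.02. For the genes that were not tested, these medians take values of the fit over all probes.

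**Figure D1:**
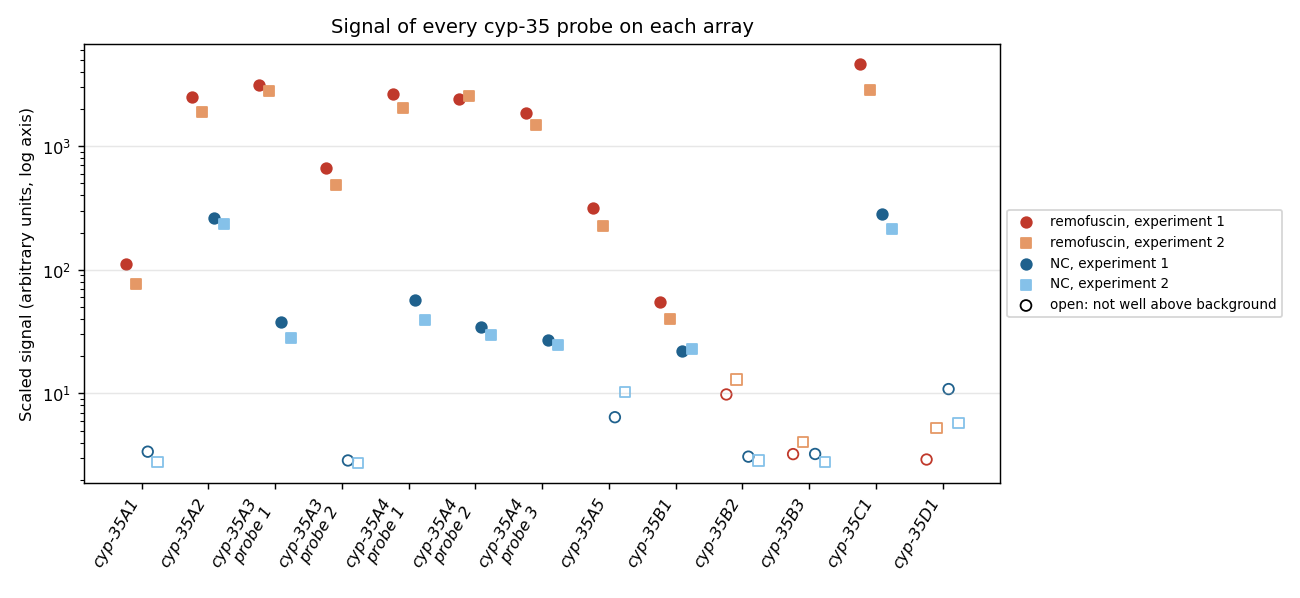
Scaled signal (log axis) of the 13 *cyp-35* probes on the arrays of remofuscin-treated worms (left, red and orange) and NC (right, blue), with circles for experiment 1, squares for experiment 2 and open symbols for signals not well above background. The 10 tested probes, of 7 genes, lie higher on both arrays of remofuscin-treated worms than on both NC arrays. Over all tested probes, 8.49% do. The probes of *cyp-35A1* and *cyp-35A5* and the dimmer one of *cyp-35A3* passed the filter only through the arrays of remofuscin-treated worms. The filter therefore largely fixed the order of their signals in advance, and they add nothing to the comparison with 8.49%. The probes of *cyp-35B2*, *cyp-35B3* and *cyp-35D1* have open symbols on all 4 arrays.

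Among the *cyp-35A* genes, *cyp-35A3* (K09D9.2) had the largest change. Its brightest probe had signals of 3113 and 2768 in remofuscin-treated worms, against 38.1 and 27.9 in NC. The lowest treated array was 72.6 times the highest NC array, so the groups did not overlap. The fold change was 90.0 (log2 6.49, standard error 0.39, limma adjusted p = 0.000388). A dimmer probe of the same gene gave 662 and 487 in remofuscin-treated worms and 2.87 and 2.73 in NC, where it was not well above background. By that probe the signal was at least 45.2-fold higher after remofuscin. Its fitted ratio, 203, takes the NC signals as measured and is not a bound, and the limma adjusted p of 0.000362 belongs to that ratio.

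*cyp-35A4* (C49G7.8) is the member with the most probes, and all 3 were well above background on every array. The brightest by mean log2 signal gave 2640 and 2049 in remofuscin-treated worms and 57.4 and 38.9 in NC (49.2-fold, limma adjusted p = 0.00103). Another gave 2401 and 2531 in remofuscin-treated worms and 34.2 and 29.5 in NC (77.6-fold, limma adjusted p = 0.000388). The remaining probe gave 1862 and 1480 in remofuscin-treated worms and 26.8 and 24.8 in NC (64.4-fold, limma adjusted p = 0.00049). All 3 probes were higher in both arrays of remofuscin-treated worms than in either NC array, as were 8.49% of all tested probes. The 3 ratios differ, and the value read from the brightest probe is the smallest of them.

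A pair of members was well above background in remofuscin-treated worms only, *cyp-35A5* (K07C6.5) and *cyp-35A1* (C03G6.14). The signal of *cyp-35A1* was 112 and 77.1 in remofuscin-treated worms, against 3.38 and 2.78 in NC, so that it was at least 7.39-fold higher. That of *cyp-35A5* was 317 and 225 in remofuscin-treated worms, against 6.42 and 10.3 in NC, so that it was at least 21.3-fold higher. For both genes neither NC array was well above background, and each array of remofuscin-treated worms was. The fitted ratios, 30.3 for *cyp-35A1* and 32.9 for *cyp-35A5*, use those dim NC signals as measured and are not bounds. The limma adjusted p tests that fitted ratio and not the bound, and was 0.00168 for *cyp-35A1* and 0.002 for *cyp-35A5*. Under normexp it was 0.494 for *cyp-35A1* and 0.124 for *cyp-35A5*. The bounds set the mean of the treated arrays against the lowest signal well above background on each NC array.

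*cyp-35A2* (C03G6.15) and *cyp-35C1* (C06B3.3) had the smallest fold changes among the members called after adjustment for which every array was well above background. *cyp-35A2* had signals of 2476 and 1880 in remofuscin-treated worms and 260 and 236 in NC. Its fold change was 8.70 (log2 3.12, standard error 0.38, limma adjusted p = 0.0156). *cyp-35C1* had 4623 and 2851 in remofuscin-treated worms and 280 and 215 in NC. Its fold change was 14.8 (log2 3.89, standard error 0.42, limma adjusted p = 0.00784). In both genes the lowest array of remofuscin-treated worms was far above the highest NC array. The mean signal of *cyp-35C1* was 3737 ± 1253 in remofuscin-treated worms and 247 ± 46.3 in NC (SD, n = 2 arrays each).

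The *cyp-35B* genes showed smaller values. *cyp-35B1* (K07C6.4) was well above background on every array, with signals of 55.2 and 40.0 in remofuscin-treated worms and 22.1 and 23.0 in NC. The groups did not overlap, and both arrays of remofuscin-treated worms were also above both NC arrays for 8.49% of all tested probes. The fold change of *cyp-35B1* was 2.08 (log2 1.06, standard error 0.39), which passed the limits of the methods but not the adjustment (limma adjusted p = 0.9999). Its ratio was 2.50 in experiment 1 and 1.74 in experiment 2. With the experiment as a replicate block, the adjusted p of *cyp-35B1* was 0.00278.

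*cyp-35B2* (K07C6.3) had signals of 9.80 and 12.9 in remofuscin-treated worms and 3.08 and 2.87 in NC. None of the 4 was well above background. The scanner software has a weaker mark, positive and significant, which a spot gets when its signal differs from the local background. Both arrays of remofuscin-treated worms had this mark for *cyp-35B2* and neither NC array had it. In a fit over all probes it passed the limits of the methods but not the adjustment, which 0.2% of probes passed upward. Its limma adjusted p was 0.147, or 1.49e-06 with the experiment as a replicate block, and no fold change is given. *cyp-35B3* (K07C6.2) had 3.23 and 4.06 in remofuscin-treated worms and 3.24 and 2.78 in NC, without the weaker mark on any array, and the groups overlapped.

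*cyp-35D1* (F14H3.10) was the only member with lower signals in remofuscin-treated worms, 2.92 and 5.27, against 10.8 and 5.78 in NC. No array was well above background, and no fold change is given. It did not pass the test in a fit over all probes (limma adjusted p = 0.995).

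**Figure D2:**
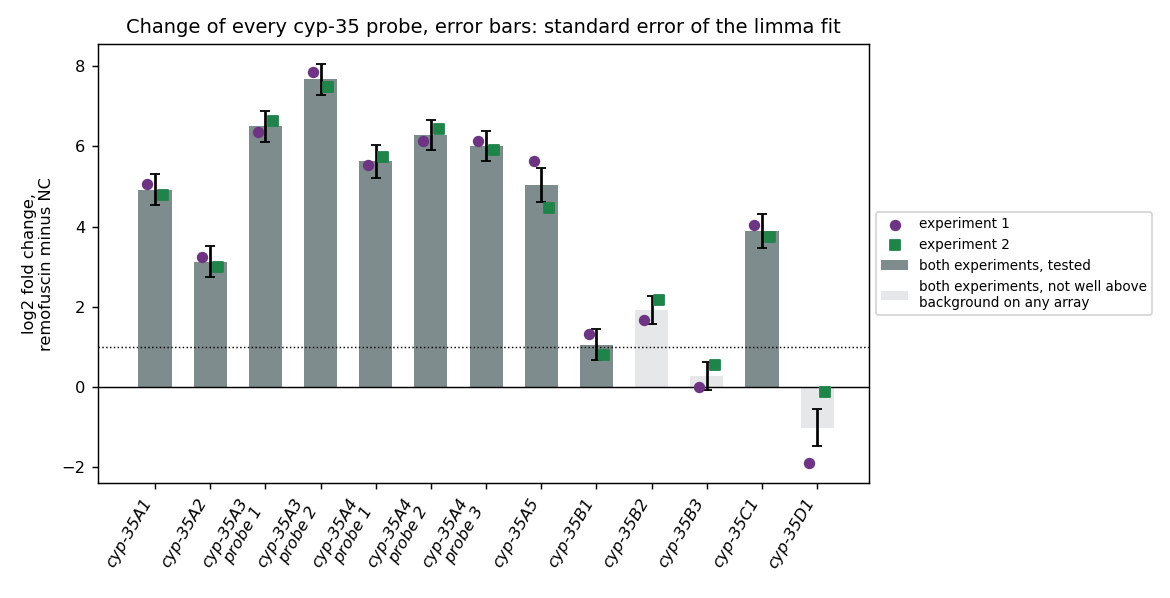
Log2 fold change of each *cyp-35* probe, remofuscin-treated worms minus NC, with the standard error of the limma fit (bars) and the difference within experiment 1 (circles) and experiment 2 (squares); the dotted line marks a fold change of 2. The bars of the *cyp-35A* and *cyp-35C1* probes stand between 3.12 and 7.66, that of *cyp-35B1* at 1.06, and pale bars mark probes not well above background on any array.

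Each experiment gave its own ratio of remofuscin-treated worms over NC. The median log2 difference over the 10 genes was 3.65 in experiment 1 and 3.36 in experiment 2, while that over all tested probes was -0.05 and 0.01. Of the 10 tested *cyp-35* probes, 7 had the larger ratio in experiment 1. Among genes well above background on every array, *cyp-35A3* gave 81.6 and 99.2 by its brightest probe, *cyp-35A2* gave 9.51 and 7.96, and *cyp-35C1* gave 16.5 and 13.3 in experiments 1 and 2. With 1 array per group in an experiment, a difference between the experiments could not be tested. Among remofuscin-treated worms, 9 of the 10 tested probes were brighter in experiment 1 than in experiment 2, and among NC worms 8 of the 10 were. The 10 probes stand for 7 genes. Such counts were not taken over all tested probes, so they do not set the members apart from the rest of the array.

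The members lie at 6 places on chromosome V in the WBcel235 gene table, which was used for gene order only. *cyp-35A1* and *cyp-35A2* are adjacent, and so are *cyp-35A5*, *cyp-35B1*, *cyp-35B2* and *cyp-35B3*, in this order. Within an array, the log2 signal of *cyp-35A1* minus that of *cyp-35A2* was higher in remofuscin-treated worms than in NC by 1.80 in experiment 1 and by 1.80 in experiment 2. The bound of *cyp-35A1*, 7.39-fold, is under the 8.70-fold of *cyp-35A2*, so the larger fitted change of *cyp-35A1* depends on its dim NC signals. For *cyp-35A5* minus *cyp-35B1*, the difference was 4.31 and 3.66 in the experiments, and the bound of *cyp-35A5* (21.3-fold) was also above the 2.08-fold of *cyp-35B1*. With 2 arrays against 2, an exact permutation test cannot give a p under 0.333, so it says nothing about these differences, and no other test of them was run. No difference is given for pairs that include *cyp-35B2* or *cyp-35B3*, which were not well above background on any array.

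None of the tested genes that flank the members passed the limits of the methods in the fit without a block, and with the replicate block *srx-63* passed them. *cyp-35A3* and *cyp-35A4* are separated by a single gene, K09D9.1. That gene had signals of 7040 and 5376 in remofuscin-treated worms and 6718 and 3734 in NC (1.23-fold, limma adjusted p = 0.9999), between neighbors that rose 90.0-fold and 49.2-fold. Between *cyp-35B3* and *cyp-35A3* lie 24 protein-coding genes, of which 23 have a probe and 12 were tested. None of the 12 passed the limits of the methods in either direction (0 genes, and 0 by limma adjusted p). Over all tested probes, 1.84% passed these limits upward and 1.02% downward, so 0 of 12 is near that share. With the replicate block 1 of the 12, *cyp-34A9*, was higher after adjustment, against 3.15% of all tested probes. The log2 fold changes of the 12 genes ran from -0.30 to 0.96. The stretch holds 6 genes of the related *cyp-34A* subfamily, 5 of them tested, and *cyp-34A9* was highest among these, with 391 and 331 in remofuscin-treated worms and 204 and 169 in NC (1.94-fold, limma adjusted p = 0.9999, or 0.0105 with the replicate block). It also holds 6 *nlp* genes for antimicrobial peptides, with log2 fold changes between -0.30 and 0.08.

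At the other places, *exc-13*, next to *cyp-35A2*, was at 1.14-fold, and *sptl-3* and *oac-3*, on either side of *cyp-35C1*, were at 1.12-fold and 1.33-fold (limma adjusted p = 0.9999 for each). C03G6.6, next to *cyp-35A1*, was not well above background on any array. On the outer sides of the 4-gene run, *dach-1* was at 0.91-fold, and *srx-63* had overlapping signals of 44.0 and 433 in remofuscin-treated worms and 21.6 and 117 in NC (limma adjusted p = 0.9999 for both). Within the experiments, the log2 difference of *srx-63* was 1.03 and 1.89, and its adjusted p was 3.65e-06 with the replicate block. *nhr-176*, next to *cyp-35D1*, encodes the nuclear receptor that induces *cyp-35D1* in response to thiabendazole. Its signals were 231 and 139 in remofuscin-treated worms and 149 and 89.0 in NC, which overlapped (1.55-fold, limma adjusted p = 0.9999).

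**Figure D3:**
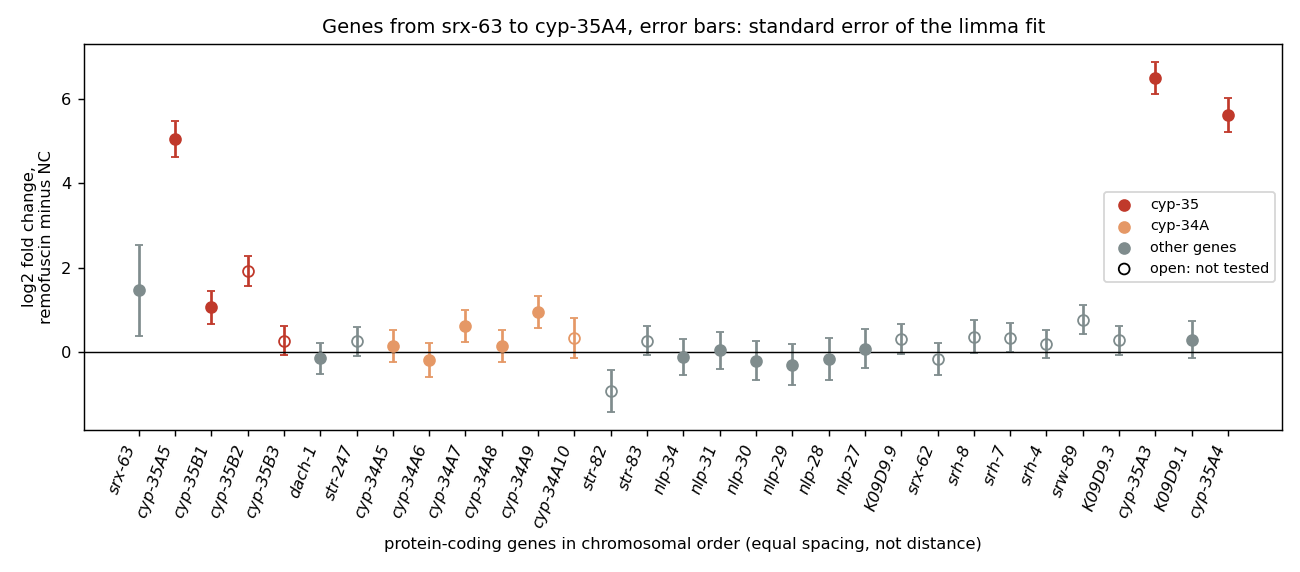
Log2 fold change (remofuscin-treated worms minus NC, with the standard error of the limma fit) of protein-coding genes in chromosomal order from *srx-63* to *cyp-35A4*, spaced equally, with open symbols for genes that were not tested. *cyp-35A5*, *cyp-35A3* and *cyp-35A4* stand at 5.04, 6.49 and 5.62, while the tested genes between *cyp-35B3* and *cyp-35A3* lie between -0.30 and 0.96.

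Outside the family, 62 other P450 genes of the worm were on the array and 52 were tested. Of these, 3 rose past the limits of the methods and 0 fell, against 1.84% and 1.02% of all tested probes. None passed after adjustment (0 genes by limma without a block), against 0.372% of all tested probes upward. With the replicate block, 4 rose past the limits of the methods, the same 3 and *cyp-13A3*, against 2.26% of all tested probes. After adjustment in that fit, 6 were higher and 1 was lower, against 3.15% and 1.94%. *cyp-13A3* had 20.7 and 90.1 in remofuscin-treated worms and 19.7 and 14.6 in NC. Its ratio was 1.05 in experiment 1 and 6.16 in experiment 2. The median log2 fold change of the 52 tested genes was 0.16. The 3 genes without a block were *cyp-34A1*, *cyp-13A10* and *cyp-13A2*. The fold change was 2.29 for *cyp-13A10* (limma adjusted p = 0.966) and 2.16 for *cyp-13A2* (limma adjusted p = 0.919). *cyp-34A1* had 50.6 and 37.1 in remofuscin-treated worms and 11.35 and 4.78 in NC. Both of its NC signals fell short of well above background, so only the treated arrays took it past the filter. It was at least 3.45-fold higher. The limma adjusted p of 0.117 tests its fitted ratio, 5.88, and not this bound. Among the nearest subfamilies by name, the 13 tested *cyp-33* genes had a median of 0.17 with 0 past the limits. The 7 tested *cyp-34* genes had a median of 0.15 with 1 past the limits, and the 11 tested *cyp-13* genes had 0.28 with 2.

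P450 enzymes in the endoplasmic reticulum take electrons from a reductase and, in part, from cytochrome b5. *emb-8*, the P450 reductase, had signals of 1463 and 2458 in remofuscin-treated worms and 1368 and 3303 in NC (0.89-fold, limma adjusted p = 0.9999). *cytb-5.1* and *cytb-5.2*, which encode cytochrome b5, were at 1.40-fold and 1.11-fold, with overlapping groups (limma adjusted p = 0.9999 for both). None of these partners passed the limits.

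Of 17 genes for regulators of *cyp-35* or other detoxification genes, 15 were tested. Of these, 1 rose past the limits, which 1.84% of all tested probes did, and 0 fell. After limma adjustment 0 passed, against 1 with the replicate block. Their median log2 fold change was -0.19. Some of them, *nhr-210* among them, were also followed in mutants by the study, so the list was not drawn up independently of these arrays, and *elt-2* is also in the list of intestinal markers. *nhr-8*, required for resistance to toxins, had 1510 and 1289 in remofuscin-treated worms and 1236 and 1124 in NC (1.18-fold, limma adjusted p = 0.9999). *nhr-49*, a regulator of fat metabolism, was at 0.94-fold, *mdt-15*, a Mediator subunit that serves it, at 0.88-fold, and *pha-4* at 0.88-fold (limma adjusted p = 0.9999 for each). *ahr-1*, the aryl hydrocarbon receptor, was not well above background on any array, and its partner *aha-1* was at 0.86-fold. *nhr-234* was not tested either, being well above background on 1 array only. It had overlapping signals of 27.6 and 7.18 in remofuscin-treated worms and 7.73 and 4.78 in NC. In the fit over all probes its limma adjusted p was 0.995, or 0.0108 with the replicate block. The gene past the limits was *nhr-210*, with 15.9 and 32.6 in remofuscin-treated worms and 5.56 and 12.5 in NC (2.72-fold, limma adjusted p = 0.9999, or 4.68e-06 with the replicate block). The NC signal of 5.56 was not well above background, and the ratio takes it as measured.

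The 9 intestinal markers were all tested, with a median log2 fold change of 0.18. *elt-2*, the GATA factor of the intestine, had 210 and 210 in remofuscin-treated worms and 211 and 206 in NC (1.01-fold). The summed signal of the list was 7130 and 8863 in remofuscin-treated worms and 6536 and 9892 in NC, and 1 gene, *pho-1*, an intestinal acid phosphatase, rose past the limits (2.49-fold, limma adjusted p = 0.604, or 5.11e-05 with the replicate block). The markers of the hypodermis moved with the treatment. All 3 of them, the cuticle collagens *col-19*, *rol-6* and *dpy-7*, rose past the limits, 2 of them after limma adjustment and 3 with the replicate block. Their summed signal was 8046 and 7575 in remofuscin-treated worms and 1493 and 1189 in NC. Most of that sum came from *col-19*, with 7672 and 7233 in remofuscin-treated worms and 1432 and 1151 in NC. The part of these markers in the change of the *cyp-35* genes was not tested. Of the markers of muscle, pharynx, neurons, germ line, oocytes and embryos, 0 passed the limits in either direction without a block, and with the replicate block *unc-54*, a muscle myosin, was higher after adjustment (adjusted p = 0.0181).

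The genes outside the family whose profile over the 4 arrays lay nearest to the median profile of the 7 tested *cyp-35* genes were *col-161*, K01D12.9, *col-91*, *col-77* and *col-90*. The measure is the Euclidean distance between log2 profiles, each centered on its mean over the 4 arrays, and it was between 0.36 and 0.72 for these genes. Among the members it ran from 0.42 for *cyp-35A1* to 3.66 for *cyp-35B1*. With 2 arrays per group, the measure mainly reflects the size of the difference between the groups. The 4 *col* genes encode cuticle collagens. *col-161* averaged 72.6 ± 18.9 in remofuscin-treated worms and 3.14 ± 0.221 in NC (SD, n = 2 arrays each, at least 5.68-fold). *col-90* had 300.2 and 249 in remofuscin-treated worms and 8.53 and 6.24 in NC (at least 21.8-fold). Genes picked for a profile like that of the members differ between the groups by that choice, so no p-value is given for them. None of the 5 genes was well above background on either NC array.

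**Figure D4:**
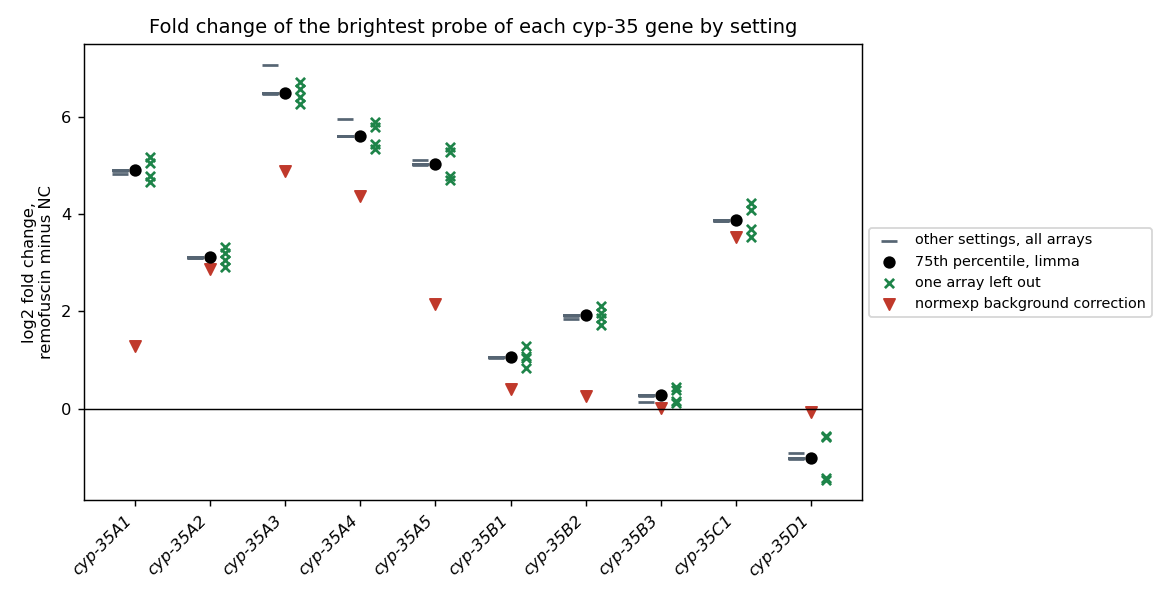
Log2 fold change (remofuscin-treated worms minus NC) of the brightest probe of each *cyp-35* gene under the settings tried, with the values after scaling to the 75th percentile as black dots, those with 1 array left out as crosses and those under normexp background correction as triangles. Normexp moved *cyp-35A1* to 1.28 and *cyp-35A5* to 2.14, and *cyp-35A3* to 4.89, against 4.92, 5.04 and 6.49 for the black dots.

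The fitted changes were smaller under the normexp alternative, which differs in several steps at once, the background method, the added offset of 50, the use of the median spot signal and quantile normalization, and which of them mattered was not tested. The log2 fold change was then 1.28 for *cyp-35A1* and 2.14 for *cyp-35A5*, against 4.89 for *cyp-35A3*, 4.37 for *cyp-35A4*, 2.88 for *cyp-35A2* and 3.53 for *cyp-35C1*. Among the members, only *cyp-35A3* (limma adjusted p = 0.0235) and *cyp-35A4* (limma adjusted p = 0.0329) passed the adjustment. Under normexp, 8 of all tested probes were higher after adjustment. Without 1 array, log2 fold changes were 4.65 to 5.19 for *cyp-35A1*, 2.92 to 3.32 for *cyp-35A2* and 6.27 to 6.72 for *cyp-35A3*. They were 5.34 to 5.90 for *cyp-35A4*, 4.70 to 5.38 for *cyp-35A5* and 3.54 to 4.24 for *cyp-35C1*. The p-values of these fits are not used for the *cyp-35* genes, since a lone array is assumed to vary like the other group. The log2 fold change of *cyp-35B1* was 0.83 without remofuscin replicate 1 and 1.29 without remofuscin replicate 2. The files used here hold no probe sequences, and cross-hybridization among similar members was not examined.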

How the data were processed

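RNA of whole worms was hybridised to 1-colour Agilent *C. elegans* arrays. The deposited scanner files give intensity per spot, from which the authors' software (Feature Extraction 11.5.1.1 per the file headers) had already subtracted background, and the processed intensity was used here. The deposited value table holds log2 values, which were within 0.01 of log2 of the same intensity for 99.945% to 99.968% of probes, so it was used only as an alternative.

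Control spots and spots marked as outliers were left out, leaving 43603 probes, of which 78.7% could be named through the WBcel235 gene table, and 39 probes lacked a value on an array. The array design follows an older genome release, so only names and gene order were taken from that table. Log2 intensity minus the 75th percentile of each array was fitted with limma 3.58.1 in R 4.3.3, without a block, over probes with at least 2 of 4 arrays well above background, with Benjamini-Hochberg adjustment over all of them, and a gene was read from its brightest probe. The limits of p under 0.05 and at least 2-fold are those of the methods. With 2 arrays per group, the fit had 2 residual degrees of freedom. To these limma added a prior spread shared over the tested probes, with 6.21 degrees of freedom (SD 0.423 on the log2 scale). The number of arrays limits the precision. Arrays with the same title prefix were taken as 1 experiment, and their deviations from the group means correlated across probes (Pearson r = 0.736, Spearman rho = 0.763). Probes are not independent replicates, and with 2 arrays per group these are a description.

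The members and gene lists were chosen with earlier results of these data known. Named were the 10 genes with every probe, genes of the lists, flanking genes, and the 5 other genes nearest to the members' median profile. Alternatives were median and quantile scaling, normexp with an offset of 50, the value table, the methods' t-test, an intensity trend, other filters, outlier-marked spots kept, all probes averaged, a replicate block and each array left out. Normexp used the median spot signal, as no mean signal was used here. Protein and promoter sequences were not analysed here. The script was tested on simulated data.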

Additional observations from a re-analysis of the deposited data

How the results depend on the processing

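All 186 values of single *cyp-35* genes or probes under the alternatives that could give one kept their direction. The t-test, the intensity trend, the replicate block and the other filters leave the fold change of a probe unchanged. Direction could not turn under those settings, and the value table holds the same intensities, so the 186 values are not separate checks. Of the 6 genes called after adjustment, normexp background correction left 2, *cyp-35A3* and *cyp-35A4*, and the methods' t-test left 0 after Benjamini-Hochberg adjustment, although 8 genes passed p under 0.05 and 2-fold in that test. The filter on all 4 arrays left 4, since *cyp-35A1* and *cyp-35A5* do not pass it, 5 at p under 0.05 and 2-fold, and no median or pair difference, because members then lack a value. A paired fit with the experiment as a replicate block gave 8, adding *cyp-35B1* and *cyp-35B2*. In fits without 1 array, a lone array is assumed to vary like the other group. More of all probes then passed the adjustment than with all 4 arrays, so counts of members from those fits are not set beside the 6. The count at p under 0.05 and 2-fold was 6 under normexp, against 8. The median log2 fold change was 1.71 under normexp and between 3.23 and 3.78 without 1 array, against 3.50. The difference of *cyp-35A1* minus *cyp-35A2* turned to -1.60 under normexp. The cause was not tested.

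Over all probes, 108 were higher after adjustment, against 166 with median scaling, 8 with normexp, 0 with the t-test (242 probes were higher at p under 0.05 and 2-fold in it), 48 with the filter on all 4 arrays, 915 with the replicate block and 120 to 386 without 1 array (169 without remofuscin replicate 1, 386 without NC replicate 1, 335 without NC replicate 2). Lower were 19, against 70 with median scaling, 0 with normexp, the t-test and the filter on all 4 arrays, 2 with the intensity trend, 11 without a filter, 9 with probes averaged, 564 with the replicate block and 26 to 154 without 1 array. Higher at p under 0.05 and 2-fold were 535, against 206 with normexp, 315 with probes averaged and 378 to 1607 without 1 array, the highest without NC replicate 1. With probes averaged, the counts are of means per gene and not of single probes, and other filters change the number of probes fitted. Those counts are therefore not like for like with the main ones. Signals near background in NC limit the ratios of *cyp-35A1*, *cyp-35A5* and the dimmer probe of *cyp-35A3*, and 2 arrays per group limit every p-value.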
